A study of Mus musculus with 16 samples.

Results

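Transcripts of 9 genes of fatty acid uptake and activation (Cd36, Slc27a1, Slc27a4, Fabp3, Acsl1, Lpl, Gpihbp1, Angptl4 and Vldlr) were followed in quadriceps muscle of mice on a control or a high-fat diet, before and after a maximal run. They were taken by gene symbol from the deposited expression table, which held 23970 symbols, and all 9 were found and were high enough to be tested. The table covers 16 libraries of male C57BL/6NTac mice aged 16 weeks, 4 in each of 4 groups. CON-pre and CON-post mice had eaten a control diet (CON) with 10% of kcal from fat for 10 weeks, and HFD-pre and HFD-post mice a high-fat diet (HFD) with 60% of kcal from fat for the same time. The post groups ran on a treadmill to exhaustion and were studied 3 h later, and the pre groups were studied without that run. Mice of all groups were familiarised with the treadmill and were fasted for 3 h ahead of the test. The post groups received water but no food after the run. The pre groups are described as having had a matching fast, but whether this covered the hours after the run is not given, and if it did not, the run and those hours cannot be told apart. The pre and post muscles came from different mice of 1 sex and 1 strain.

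Fatty acids reach a muscle fibre in 2 forms. Those bound to albumin cross the capillary wall and the fibre membrane with the help of CD36, a membrane translocase, and of fatty acid transport proteins, of which FATP1 (Slc27a1) and FATP4 (Slc27a4) are found in muscle. Those carried as triglyceride in lipoproteins are first released by lipoprotein lipase (Lpl), which muscle and fat cells secrete and which GPIHBP1, a protein of capillary endothelium, carries to the vessel lumen and holds there. ANGPTL4 inhibits the lipase, and the VLDL receptor (Vldlr) binds and takes up triglyceride-rich particles. Inside the fibre FABP3, the heart and muscle fatty acid binding protein, carries the fatty acid through the cytosol, and acyl-CoA synthetases such as ACSL1 join it to coenzyme A, without which it can be neither oxidised nor stored. Several of these genes, Cd36, Fabp3, Acsl1, Lpl and Angptl4 among them, are known targets of peroxisome proliferator activated receptors (PPARs), which bind DNA with a retinoid X receptor at direct repeats of a short hormone response half-site.

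In RefSeq (GRCm38.p6) the genes lie on 7 chromosomes: Cd36 at chr5:17781690-17888959, Fabp3 at chr4:130308738-130315463, Slc27a4 at chr2:29802634-29817522, Angptl4 at chr17:33774900-33781575, Vldlr at chr19:27216480-27254231, Gpihbp1 at chr15:75596630-75598213, and 3 on chromosome 8, Acsl1 at chr8:46471037-46536051, Lpl at chr8:68880555-68906932 and Slc27a1 at chr8:71568728-71587307. All 9 are protein coding. RefSeq promoter entries were matched for 6 of the 9 genes, with 10 start sites among them (none for Lpl, Angptl4 and Gpihbp1). The 250 bases ahead of a start site are given here for 3 of the genes that differed most clearly by diet, Cd36 (chr5:17835897-17836146, minus strand), Fabp3 (chr4:130308488-130308737, plus strand) and Acsl1 (chr8:46470787-46471036, plus strand). Each runs 5′ to 3′ in the direction of transcription and ends 1 base before the start, and capitals mark the motifs that were searched for.
Cd36: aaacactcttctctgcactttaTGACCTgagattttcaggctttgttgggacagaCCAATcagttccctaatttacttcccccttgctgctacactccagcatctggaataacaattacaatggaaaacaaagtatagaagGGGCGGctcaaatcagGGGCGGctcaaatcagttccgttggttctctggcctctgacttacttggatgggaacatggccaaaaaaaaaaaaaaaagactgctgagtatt
Fabp3: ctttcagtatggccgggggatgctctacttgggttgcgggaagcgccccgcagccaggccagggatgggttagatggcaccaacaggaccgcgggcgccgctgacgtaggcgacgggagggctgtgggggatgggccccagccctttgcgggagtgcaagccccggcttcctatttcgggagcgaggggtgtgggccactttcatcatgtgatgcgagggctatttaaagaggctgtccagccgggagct
Acsl1: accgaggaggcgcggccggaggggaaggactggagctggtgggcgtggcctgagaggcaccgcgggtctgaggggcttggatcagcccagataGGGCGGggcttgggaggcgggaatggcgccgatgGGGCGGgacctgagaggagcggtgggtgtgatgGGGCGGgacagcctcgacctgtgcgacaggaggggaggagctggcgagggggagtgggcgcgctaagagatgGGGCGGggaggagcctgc

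The motifs were AGGTCA (the half-site), AGGTCANAGGTCA (the direct repeat, in which the half-site is contained), GGGCGG (a GC box), CCAAT and TATAAA, each read on both strands. The Cd36 window held AGGTCA on the strand opposite to transcription (it is printed as its reverse complement, the first capitals), beginning 228 bases before the start, and 14.0% of all 32851 windows in the RefSeq table held that motif. It also held CCAAT 195 bases and GGGCGG 109 and 93 bases before the start. The Acsl1 window printed here held GGGCGG at 157, 123, 90 and 18 bases before the start, a motif present in 6 of the 10 windows of these genes and in 32.7% of all windows. The window of another Acsl1 start site, not printed, held no GGGCGG, and CCAAT on the opposite strand 172 and 49 bases before the start. The Fabp3 window held none of these motifs. AGGTCANAGGTCA was in 0 of the 10 windows of these genes and in 0.0335% of all windows, TATAAA in 0 of 10 and 12.4%, and CCAAT in 5 of 10 and 33.8%. These matches are of letters only, within short windows.

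Expression is given as FPKM, the fragments of a transcript divided by its length and by the size of the library, so genes can be compared per length. All genes of a library together came to 283575 to 329282 FPKM, any 2 libraries correlated at 0.966 to 0.984 on the log2 scale, and depth judged from genes of low expression ranged from 0.706 to 1.12 times that of CON-pre replicate 1. Differences are on the log2(FPKM + 0.5) scale, which understates changes of low genes, and were tested with limma in 1 fit of all 4 groups over 11256 genes. A gene was called where its p, adjusted by Benjamini-Hochberg over these genes, was under 0.05. The 8 muscle fibre markers that stand for the labelled tissue were Ckm, Acta1, Myh4, Myh1, Tnnt3, Mylpf, Actn3 and Pvalb, most of them genes of fast fibres. They were present in every library, none of them at 0. Their FPKM summed to 71896 to 78696 in CON-pre, 62029 to 68289 in HFD-pre, 62086 to 72643 in CON-post and 54095 to 67128 in HFD-post. The sums of the pre groups did not overlap. By diet 7 of the 8 were lower and 6 of them at an unadjusted p under 0.05, with 0 called and a median difference of −0.17, and by exercise 7 of the 8 were lower, 2 of them at that level, with a median of −0.10. With this list less RNA of muscle fibres as a whole and less RNA of fast fibre genes cannot be told apart. Both shifts of the fibre markers went along with the differences of the 9 genes, and their part in them was not tested.

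Per length of transcript, Lpl was the most abundant of the 9 genes with a mean of 143 FPKM over the 16 libraries, higher than 98.1% of the genes tested. Fabp3 (113 FPKM), Cd36 (94.6 FPKM) and Acsl1 (93.2 FPKM) followed, so that 1 gene each for release, entry, carriage and activation ranked above 96.9 to 98.1% of the genes tested. Vldlr averaged 34.8 FPKM, Gpihbp1 21.4 FPKM, Slc27a1 20.1 FPKM and Angptl4 6.30 FPKM. Slc27a4 was the lowest at 2.01 FPKM, above 28.3% of genes and 71.1-fold below Lpl. In all 9 genes the 4 groups accounted for more of the variance than in the median gene tested (48.8 to 81.7% against 22.9%). The spread within groups was widest for Fabp3, with a residual SD of 0.43 on the log2 scale, and for Angptl4, with 0.37, against a median of 0.18 over all genes.

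Cd36, the membrane translocase, was measured at 54.8, 59.8, 69.7 and 77.4 FPKM in the 4 CON-pre libraries. HFD-pre libraries had 97.4, 88.3, 96.4 and 127 FPKM. After exercise it was at 80.9, 94.2, 92.6 and 87.1 FPKM in CON-post and at 138, 123, 113 and 113 FPKM in HFD-post. All CON-pre values lay below all values of the other 3 groups, and all HFD-post values lay above all CON-post values. CON-post and HFD-pre overlapped, as did HFD-pre and HFD-post, the group means standing at 65.4 ± 10.1, 88.7 ± 6.03, 102 ± 17.2 and 122 ± 11.8 FPKM (SD, n = 4) from CON-pre through CON-post and HFD-pre to HFD-post.

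Slc27a1, the more abundant of the transport proteins, had 11.8, 14.3, 15.9 and 19.0 FPKM in CON-pre and 17.5, 21.9, 21.9 and 21.2 FPKM in HFD-pre. It had 19.1, 17.4, 18.7 and 22.0 FPKM in CON-post and 26.0, 25.3, 23.9 and 26.2 FPKM in HFD-post. The HFD-post libraries were above those of every other group, and the other 3 groups overlapped step by step. Slc27a4 had 2.23, 1.62, 2.37 and 2.21 FPKM in CON-pre, and 2.57, 1.87, 2.20 and 2.32 FPKM in HFD-pre. In CON-post it had 1.48, 1.89, 1.58 and 1.68 FPKM, and in HFD-post 1.74, 2.12, 2.19 and 2.07 FPKM. Its groups overlapped at each step of their order, in which the means of both post groups (1.66 and 2.03 FPKM) were below those of both pre groups (2.10 and 2.24 FPKM).

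Fabp3, the cytosolic carrier, covered the widest range of the 9 genes. CON-pre libraries had 43.0, 35.5, 71.2 and 69.1 FPKM and CON-post libraries 75.2, 71.4, 101 and 74.2 FPKM. HFD-pre libraries had 128, 89.7, 112 and 200.5 FPKM and HFD-post libraries 264, 198, 157 and 125 FPKM. At matched exercise state every HFD library was above every CON library, whereas HFD-pre and HFD-post overlapped. The group means were 54.7 ± 18.1, 80.4 ± 13.7, 133 ± 48.0 and 186 ± 59.8 FPKM (SD, n = 4) in CON-pre, CON-post, HFD-pre and HFD-post.

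Acsl1, which activates the fatty acid to its acyl-CoA, had 70.5, 78.5, 75.5 and 73.0 FPKM in CON-pre against 103, 93.2, 97.2 and 99.5 FPKM in HFD-pre, with no overlap. It had 77.3, 94.5, 88.4 and 108 FPKM in CON-post and 118, 102, 100.2 and 113 FPKM in HFD-post. The CON-post libraries spanned the whole distance between the pre groups, and neighbouring groups overlapped at each step of the order CON-pre, CON-post, HFD-pre and HFD-post. It had the smallest spread within groups of the 9 genes, a residual SD of 0.12 on the log2 scale.

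**Figure D1:**
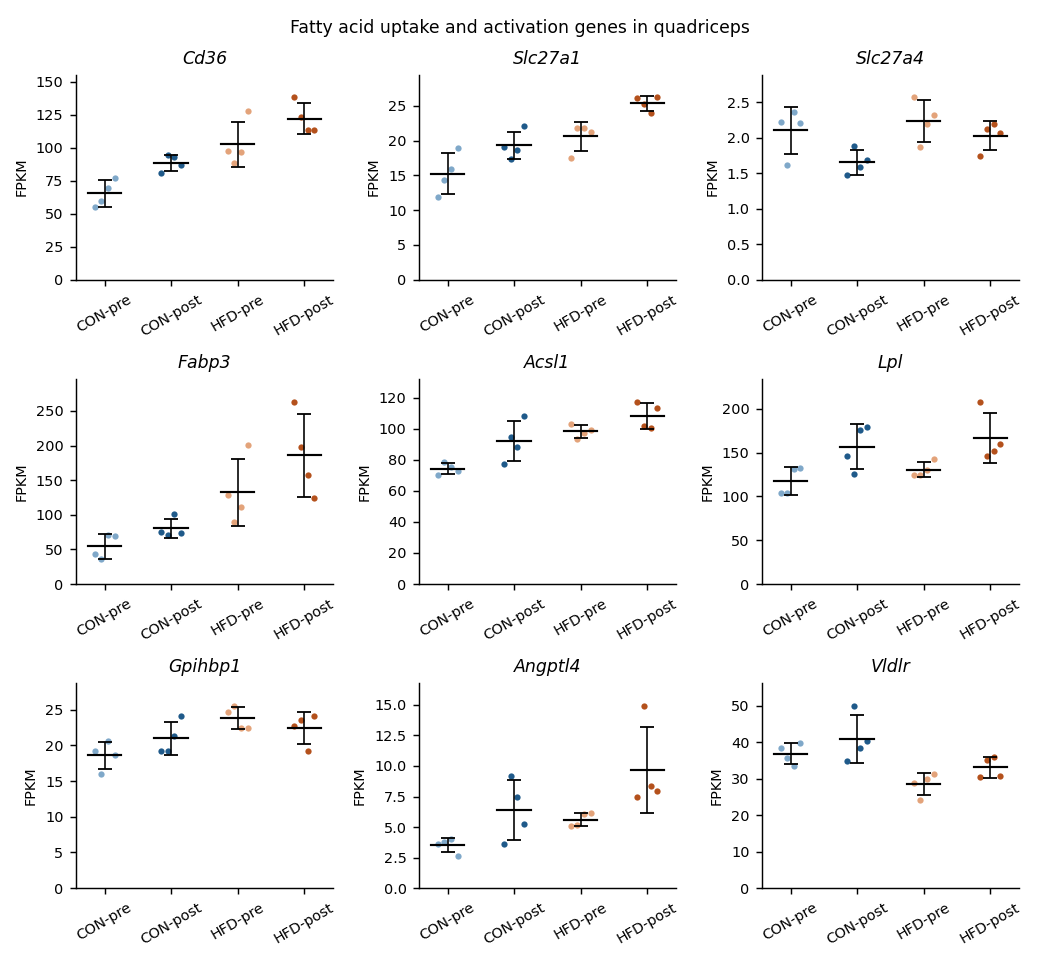
FPKM (vertical axes, from 0) of the 9 genes in each of the 16 libraries (points), with the group mean (bar) and SD (whiskers, n = 4), for CON-pre, CON-post, HFD-pre and HFD-post. In the Cd36 and Fabp3 panels all CON-pre points lie below all points of the other groups, and in the Vldlr panel the HFD-pre points (24.2 to 31.3 FPKM) lie below the CON-pre points (33.5 to 39.7 FPKM).

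Lpl had 104, 103, 131 and 132 FPKM in CON-pre and 125, 124, 130.4 and 142 FPKM in HFD-pre, which overlapped. It had 146, 126, 176 and 179 FPKM in CON-post and 208, 146, 152 and 160.2 FPKM in HFD-post. Every HFD-post library was above every HFD-pre library, and the 2 post groups overlapped with means of 157 ± 25.4 and 167 ± 28.4 FPKM (SD, n = 4).

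Gpihbp1, the endothelial anchor of the lipase, had 19.2, 16.0, 20.6 and 18.6 FPKM in CON-pre and 24.6, 25.5, 22.5 and 22.5 FPKM in HFD-pre, with no overlap. It had 19.2, 19.2, 21.3 and 24.1 FPKM in CON-post and 22.7, 23.6, 19.2 and 24.1 FPKM in HFD-post. The post groups overlapped each other and both pre groups, and HFD-pre, not HFD-post, had the highest mean, 23.8 ± 1.55 against 22.4 ± 2.23 FPKM (SD, n = 4).

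Angptl4, the inhibitor, had 3.63, 3.74, 4.02 and 2.67 FPKM in CON-pre and 5.09, 5.19, 6.05 and 6.16 FPKM in HFD-pre. After exercise it had 3.64, 9.17, 7.47 and 5.25 FPKM in CON-post and 7.46, 14.9, 8.39 and 7.93 FPKM in HFD-post. All HFD-pre values lay above CON-pre and below HFD-post. The CON-post libraries were scattered from the CON-pre level to above all but 1 of the HFD-post libraries.

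Vldlr had 38.4, 35.6, 33.5 and 39.7 FPKM in CON-pre and 28.8, 24.2, 29.9 and 31.3 FPKM in HFD-pre, so that all HFD-pre libraries were below all CON-pre libraries. It had 34.8, 50.0, 38.4 and 40.4 FPKM in CON-post and 30.5, 35.2, 36.0 and 30.7 FPKM in HFD-post. It was the only 1 of the 9 genes whose HFD mean was below the CON mean in both exercise states.

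The first question was which of these genes differ by diet. Averaged over the exercise states, 4 of the 9 genes rose with HFD: Fabp3 2.32-fold, Cd36 1.46-fold, Slc27a1 1.33-fold and Acsl1 1.25-fold, a gene each for cytosolic carriage, 2 routes of membrane entry and activation. None fell. Over all genes tested, 0.959% were called in this comparison. On the log2 scale the differences were 1.22 for Fabp3 (SE 0.19, adjusted p = 0.00251), 0.55 for Cd36 (SE 0.08, adjusted p = 0.00196), 0.41 for Slc27a1 (SE 0.08, adjusted p = 0.0197) and 0.32 for Acsl1 (SE 0.06, adjusted p = 0.0157). The call of Slc27a1 was lost without CON-post replicate 2 (0.39, adjusted p = 0.0513), and the 3 others held under every alternative that was run.

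The genes of lipoprotein triglyceride release did not pass the test of diet. Vldlr was lower by 0.33 on the log2 scale (SE 0.08) and just missed the threshold at an adjusted p of 0.0508, and it passed when libraries were scaled by the upper quartile, by the median of ratios or by quantiles (adjusted p = 0.0185, 0.0215 and 0.0369). Over all 29 alternatives at the threshold of 0.05 it passed in 8 and missed in 21, with an adjusted p of up to 0.117. Angptl4 differed by 0.60 (SE 0.17, adjusted p = 0.127) and Gpihbp1 by 0.22 (SE 0.07, adjusted p = 0.186). The difference of Lpl was 0.12 with a 95% interval from −0.07 to 0.32 (adjusted p = 0.701), and that of Slc27a4 was 0.15 with an interval from −0.02 to 0.32 (adjusted p = 0.544). With 1 library left out, the Lpl difference ranged from 0.07 to 0.16. Of the 9 genes 8 had a positive difference and their median was 0.32, beside 43.4% and a median of −0.02 over all genes.

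Before exercise, Cd36 alone was called in HFD-pre against CON-pre, where 0.346% of all genes were called. Its difference was 0.64 (SE 0.12, adjusted p = 0.0229). Fabp3 differed by 1.27 (adjusted p = 0.0580), Acsl1 by 0.40 (adjusted p = 0.0648), Slc27a1 by 0.44 (adjusted p = 0.175) and Gpihbp1 by 0.35 (adjusted p = 0.196). Vldlr differed by −0.36 (adjusted p = 0.249), Angptl4 by 0.62 (adjusted p = 0.455), Lpl by 0.16 (adjusted p = 0.827) and Slc27a4 by 0.08 (adjusted p = 0.934). In 6 of the 9 genes the values of the groups did not overlap, with Cd36, Fabp3, Angptl4, Gpihbp1 and Acsl1 higher and Vldlr lower, against 5.62% of all genes. The call of Cd36 rested on both the libraries and the fit: its adjusted p was 0.110 when these 2 groups were fitted alone, where Acsl1 was called in its place (adjusted p = 0.0342), and 0.112, 0.102, 0.0623, 0.0529 and 0.0648 without CON-pre replicates 1 and 2 and HFD-pre replicates 1, 3 and 4.

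After exercise, 0 of the 9 genes were called in HFD-post against CON-post by limma, where 0.151% of all genes were called. At an unadjusted p under 0.05 there were 5 higher and 1 lower of the 9, against 351 higher and 357 lower of the 11256 genes. The largest difference was that of Fabp3, 1.16 (adjusted p = 0.140). Cd36 differed by 0.45 (adjusted p = 0.218), Slc27a1 by 0.39 (adjusted p = 0.353), Acsl1 by 0.24 (adjusted p = 0.557), Angptl4 by 0.58 (adjusted p = 0.690) and Vldlr by −0.29 (adjusted p = 0.568). Slc27a4 (0.23), Gpihbp1 (0.09) and Lpl (0.09) had adjusted p of 0.825, 0.979 and 0.987. The Angptl4 difference fell to 0.36 without CON-post replicate 1 and also without HFD-post replicate 2. The values did not overlap for Cd36, Fabp3 and Slc27a1, 3 of the 9 genes against 3.16% of all genes. That fewer genes were called after than before exercise is not by itself a difference between the 2 states.

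The second question was which of the genes respond to exercise. Averaged over the diets, 4 of the 9 rose 3 h after the run: Angptl4 1.62-fold, Lpl 1.30-fold, Cd36 1.28-fold and Slc27a1 1.25-fold, the lipase and its inhibitor together with 2 routes of membrane entry. None fell. Over all genes tested 3.86% were called in this comparison. Of those calls 76.3% were higher, against 63.1, 54.2 and 48.8% with scaling by the median of ratios, by quantiles and by the upper quartile. The log2 differences were 0.70 for Angptl4 (SE 0.17, adjusted p = 0.0260), 0.37 for Lpl (SE 0.09, adjusted p = 0.0307), 0.35 for Cd36 (SE 0.08, adjusted p = 0.0256) and 0.32 for Slc27a1 (SE 0.08, adjusted p = 0.0394). Acsl1 differed by 0.22 (adjusted p = 0.0606), Fabp3 by 0.55 (adjusted p = 0.128) and Vldlr by 0.18 (adjusted p = 0.226). Slc27a4 was the only gene with a negative difference, −0.19 (adjusted p = 0.225), and the difference of Gpihbp1 was 0.04 with a 95% interval from −0.10 to 0.18 (adjusted p = 0.806), its sign turning under upper-quartile and quantile scaling (−0.0055 and −0.0071).

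All 4 of the exercise calls lay close to the threshold, and single libraries, the processing or the endothelial marker score as a covariate decided them. With that covariate Angptl4, Cd36 and Lpl were not called. None of the 4 was called without the filter on low genes. Lpl and Slc27a1 lost their calls with the upper-quartile (adjusted p = 0.0629 and 0.0732), median-of-ratios (0.0547 and 0.0669) and quantile scalings (0.0673 and 0.0817), and Cd36 and Angptl4 kept theirs. Cd36 was not called without CON-pre replicates 1 or 2, HFD-pre replicates 1, 2 or 3 or CON-post replicate 3 (adjusted p between 0.0508 and 0.0595). Lpl was not called without any of the same 6 libraries or CON-post replicate 4 (between 0.0523 and 0.0715), and Angptl4 without CON-pre replicate 1, HFD-pre replicates 1 or 2 or CON-post replicate 3 (between 0.0511 and 0.0573). Slc27a1 kept its call only without CON-pre replicate 4, HFD-pre replicate 4 or CON-post replicate 2, and otherwise had an adjusted p between 0.0510 and 0.0859. Over all 16 fits without 1 library the difference ranged from 0.31 to 0.41 for Cd36, 0.32 to 0.42 for Lpl, 0.59 to 0.81 for Angptl4 and 0.26 to 0.37 for Slc27a1.

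Within each diet no gene of the 9 passed the test of exercise. In CON-post against CON-pre, where 1.11% of all genes were called, limma called 0 of the 9. At an unadjusted p under 0.05 there were 6 higher and 1 lower, against 690 higher and 563 lower of the 11256 genes. The differences were 0.45 for Cd36 (adjusted p = 0.0881), 0.30 for Acsl1 (adjusted p = 0.138), 0.41 for Lpl (adjusted p = 0.186), 0.72 for Angptl4 (adjusted p = 0.199) and 0.34 for Slc27a1 (adjusted p = 0.225). Slc27a4 differed by −0.26 (adjusted p = 0.394), Fabp3 by 0.60 (adjusted p = 0.419), Gpihbp1 by 0.17 (adjusted p = 0.547) and Vldlr by 0.14 (adjusted p = 0.679). With 1 library left out, Gpihbp1 ranged from 0.10 to 0.22 and Vldlr from 0.04 to 0.21. Values did not overlap for Cd36 and Fabp3, 2 of the 9 genes against 5.82% of all genes.

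In HFD-post against HFD-pre, where 0.542% of all genes were called, limma again called 0 of the 9, and 4 were higher at an unadjusted p under 0.05, against 957 higher and 363 lower of the 11256 genes. The differences were 0.68 for Angptl4 (adjusted p = 0.264), 0.34 for Lpl (adjusted p = 0.308), 0.30 for Slc27a1 (adjusted p = 0.328) and 0.26 for Cd36 (adjusted p = 0.400). Vldlr differed by 0.21 (adjusted p = 0.462), Fabp3 by 0.50 (adjusted p = 0.492), Acsl1 by 0.14 (adjusted p = 0.572), Slc27a4 by −0.11 (adjusted p = 0.758) and Gpihbp1 by −0.09 (adjusted p = 0.768). The Fabp3 difference was 0.31 without HFD-post replicate 1, and that of Vldlr was 0.14 without HFD-pre replicate 2. With 1 library left out, Slc27a4 ranged from −0.18 to −0.05 and Gpihbp1 from −0.13 to −0.02. Values did not overlap for Slc27a1, Lpl and Angptl4, 3 of the 9 genes against 6.81% of all genes. HFD-pre against CON-pre and CON-post against CON-pre share the CON-pre libraries, and the other comparisons share groups in the same way, so their values are set side by side and not related to each other.

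**Figure D2:**
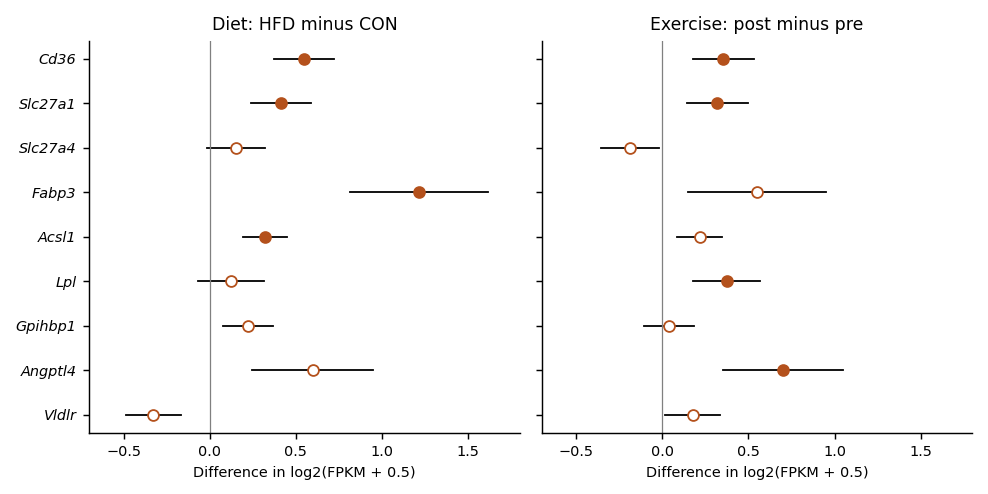
Difference in log2(FPKM + 0.5) between HFD and CON averaged over the exercise states (left) and between post and pre averaged over the diets (right) for the 9 genes, with 95% confidence intervals from limma (lines), filled where the adjusted p was under 0.05. Cd36 and Slc27a1 are filled in both panels, Fabp3 and Acsl1 only in the left and Lpl and Angptl4 only in the right, and this does not test whether their responses differ.

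Whether exercise acted differently on the 2 diets was tested as the interaction, the response on HFD minus that on CON. It was not detected for any of the 9 genes. limma called 0 of the 9 and 0% of all genes, 0 of the 9 had an unadjusted p under 0.05, and over all genes 238 were positive and 118 negative at that level. The lowest unadjusted p was that of Gpihbp1 (0.0774), whose difference in response was −0.26 (SE 0.14, adjusted p = 1.00), and the only 2 positive values were those of Slc27a4 (0.15, SE 0.16) and Vldlr. The widest 95% intervals were those of Fabp3, from −0.90 to 0.70, and Angptl4, from −0.74 to 0.67. That of Cd36 ran from −0.54 to 0.16 and that of Lpl from −0.45 to 0.32. For each of the 9 genes the interval extended, upwards or downwards, past the size of its own averaged exercise difference. A difference in response of that size could therefore have been missed for any of them.

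Ratios of 2 genes within a library depend on how the library was scaled only through the 0.5 FPKM added to each gene, and the log2 ratios of FPKM + 0.5 of 4 pairs were compared by diet and by exercise with exact two-sided permutation tests, the p-values being adjusted over the 8 tests. The ratio of Fabp3 to Cd36, carrier over translocase, was higher in HFD by 0.67 on the log2 scale (exact permutation p = 0.000816, adjusted p = 0.00490). As a plain ratio of FPKM, without that addition, it ranged from 0.594 to 1.02 in CON-pre, 0.758 to 1.09 in CON-post, 1.02 to 1.57 in HFD-pre and 1.10 to 1.91 in HFD-post, so that the carrier differed more by diet than the translocase did. Between post and pre this ratio differed by 0.20 (exact permutation p = 0.187, adjusted p = 0.223), and by 0.12 to 0.27 with 1 library left out.

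The 2 transport proteins parted after exercise. The ratio of Slc27a1 to Slc27a4 was higher by 0.51 on the log2 scale (exact permutation p = 0.00122, adjusted p = 0.00490). The plain ratio was between 5.32 and 8.84 in CON-pre and between 9.18 and 13.1 in CON-post, with no overlap, and between 6.81 and 11.7 in HFD-pre and between 10.9 and 15.0 in HFD-post. By diet it differed by 0.26 (exact permutation p = 0.0522, adjusted p = 0.0980).

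The anchor fell behind the enzyme after exercise. The ratio of Gpihbp1 to Lpl was lower by 0.33 on the log2 scale in the post groups, a difference of −0.33 (exact permutation p = 0.00286, adjusted p = 0.00762). The plain ratio ranged from 0.141 to 0.185 in CON-pre and 0.158 to 0.206 in HFD-pre, and from 0.121 to 0.152 in CON-post and 0.109 to 0.162 in HFD-post. By diet it differed by 0.10 (exact permutation p = 0.302, adjusted p = 0.302), and by 0.06 to 0.15 with 1 library left out. The ratio of Angptl4 to Lpl, inhibitor over enzyme, passed neither test, with a difference of 0.48 by diet (exact permutation p = 0.0612, adjusted p = 0.0980) and of 0.33 by exercise (exact permutation p = 0.196, adjusted p = 0.223). The latter was 0.18 without CON-post replicate 2 and 0.19 without HFD-post replicate 2. The plain ratio was 0.0202 to 0.0362 in CON-pre, 0.0408 to 0.0464 in HFD-pre, 0.0249 to 0.0729 in CON-post and 0.0358 to 0.103 in HFD-post.

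**Figure D3:**
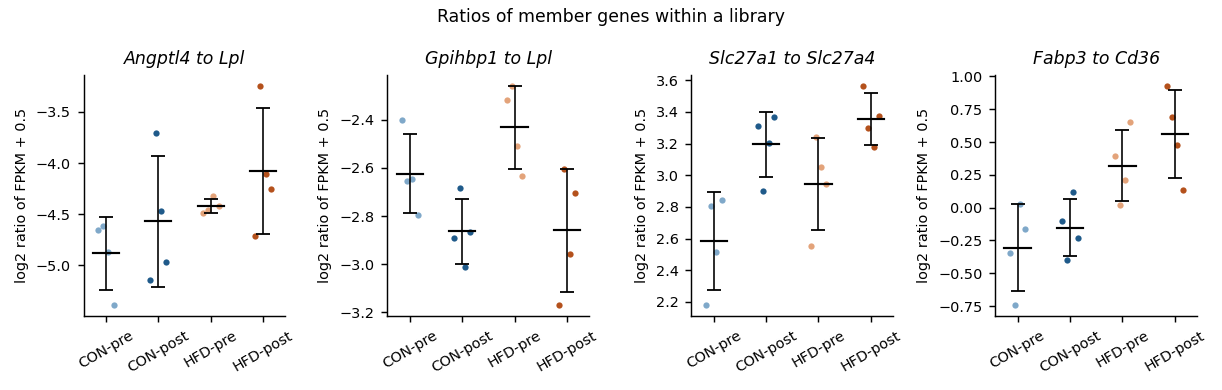
Log2 ratio of FPKM + 0.5 of 2 genes in each of the 16 libraries (points), with the group mean (bar) and SD (whiskers, n = 4), for Angptl4 to Lpl, Gpihbp1 to Lpl, Slc27a1 to Slc27a4 and Fabp3 to Cd36. Fabp3 to Cd36 is higher in the HFD groups (mean 0.32 and 0.56) than in the CON groups (mean −0.31 and −0.15).

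The 9 genes were set beside 54 other genes of the pathway that were high enough to be tested, out of 76 listed. By diet 1 of the 54 rose and 0 fell, where 0.959% of all genes were called, and by exercise 4 rose and 0 fell, where 3.86% were called. Their median difference was 0.02 by diet and 0.05 by exercise, against 0.32 in both comparisons for the 9 genes and −0.02 and 0.01 over all genes. The gene that rose with diet was Dbi, the acyl-CoA binding protein, which binds the product of the synthetases. It was at 122 ± 5.55 FPKM in CON-pre, 155 ± 16.8 in HFD-pre, 107 ± 5.68 in CON-post and 153 ± 16.9 in HFD-post (SD, n = 4). Its log2 difference by diet was 0.42 (SE 0.06, adjusted p = 0.00111), and it was also called in HFD-post against CON-post (0.51, adjusted p = 0.0236).

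The genes of the pathway that rose with exercise were Ppargc1a, Acss1, Ptrf and Mylip. Ppargc1a, the PGC-1α coactivator of PPARs, had a mean of 6.60 FPKM in CON-pre and 28.3 in CON-post, and of 4.69 in HFD-pre and 22.3 in HFD-post, a log2 difference of 2.04 (SE 0.13, adjusted p = 2.63e-07). Acss1, the mitochondrial acetyl-CoA synthetase, differed by 0.44 (adjusted p = 0.0399), Ptrf, a coat protein of caveolae, by 0.37 (adjusted p = 0.0330) and Mylip, the ubiquitin ligase that degrades lipoprotein receptors, by 0.26 (adjusted p = 0.0493). The most abundant gene of each list that was not called included Fabp4, the fatty acid binding protein of adipocytes and endothelium, with a mean of 329 FPKM and a difference of 0.15 by diet (adjusted p = 0.724) and 0.35 by exercise (adjusted p = 0.114). Apoe, a ligand of lipoprotein receptors, differed by −0.32 by diet (adjusted p = 0.323) and 0.21 by exercise (adjusted p = 0.387). Rxra, the partner of PPARs, differed by 0.02 and −0.01 (adjusted p = 0.951 and 0.954).

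Some of the 9 genes are also made by cells other than muscle fibres, and in bulk tissue fewer cells of a type and less RNA per cell cannot be told apart. The FPKM of 13 endothelial markers added up to 90.8 to 110.3 in CON-pre, 102 to 119 in HFD-pre, 106 to 133 in CON-post and 109 to 124 in HFD-post. By exercise 10 of the 13 were higher with a median difference of 0.16, and in HFD-pre against CON-pre 12 of 13 were higher with a median of 0.17. By diet averaged over the exercise states 10 of 13 were higher with a median of 0.08, and in HFD-post against CON-post 7 of 13 with a median of 0.04. Among the endothelial markers Pecam1 rose with exercise (0.36, adjusted p = 0.00141), as did Robo4 (0.29, adjusted p = 0.0216). With the endothelial marker score as a covariate, the exercise difference was 0.47 for Angptl4 (adjusted p = 0.173), 0.28 for Cd36 (adjusted p = 0.132) and 0.33 for Lpl (adjusted p = 0.124), none of them called, and 0.39 for Slc27a1 (adjusted p = 0.0350), which was. The diet differences with that covariate were 1.08 for Fabp3 (adjusted p = 0.00867), 0.51 for Cd36 (adjusted p = 0.00867), 0.45 for Slc27a1 (adjusted p = 0.0179) and 0.31 for Acsl1 (adjusted p = 0.0417), all called. In HFD-pre against CON-pre the same covariate ended the call of Cd36 (0.57, adjusted p = 0.0896).

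Slow oxidative fibres hold more FABP3 and CD36 than fast ones. The list of oxidative fibre markers held 9 genes of slow fibres and Myh2, the myosin of fast oxidative fibres. The summed FPKM of the 9 slow fibre markers overlapped between all groups, with 219.8 to 737 in CON-pre, 208 to 535 in HFD-pre, 199.7 to 733 in CON-post and 203 to 780.2 in HFD-post. Of all 10 markers 8 were lower by diet with a median difference of −0.41, 10 of 10 were higher by exercise with a median of 0.16, and 0 were called in either comparison. Myh2, the most abundant of the 10, was higher by diet by 0.34 (adjusted p = 0.509) and by exercise by 0.28 (adjusted p = 0.414). Its means were 254 FPKM in CON-pre, 330 in CON-post, 345 in HFD-pre and 404 in HFD-post, the same order of groups as for Cd36 and Fabp3. The part of Myh2 alone in the differences of the 9 genes was not tested. Over the 16 libraries the deviations from the group means of this slow fibre sum had an r of 0.71 with those of Lpl, 0.63 with Slc27a1, 0.47 with Fabp3 and 0.35 with Cd36, and between −0.44 (Angptl4) and −0.04 (Acsl1) with the other 5 genes. With a score of all 10 markers, weighted equally, as a covariate, the diet difference was 1.32 for Fabp3 (adjusted p = 0.000720), 0.58 for Cd36 (adjusted p = 0.00113), 0.46 for Slc27a1 (adjusted p = 0.00215) and 0.32 for Acsl1 (adjusted p = 0.0185), and Vldlr was then called lower (−0.35, adjusted p = 0.0255).

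Adipocyte markers moved in both directions by diet, 7 of 12 being higher with a median difference of 0.13, 2 called higher and 2 lower. By exercise 8 of 12 were higher with a median of 0.19, and in HFD-post against HFD-pre 9 of 12 with a median of 0.35, with 0 called in either. The FPKM of the 12 added up to 156 to 236 in CON-pre, 142 to 233 in CON-post, 92.0 to 109 in HFD-pre and 84.6 to 207 in HFD-post, none being at 0 in all libraries. Among them Lep (2.54) and Cidea (0.68) rose with HFD, and Cfd (−1.77) and Adrb3 (−0.73) fell. Cfd, with means of 105 and 27.4 FPKM in CON-pre and HFD-pre, made up most of the difference between the sums of these groups. Fabp3, Cd36, Slc27a1 and Acsl1 kept their diet calls with the adipocyte marker score as a covariate, and Slc27a1 lost its exercise call (0.30, adjusted p = 0.0688). The 10 macrophage markers in the table summed to 107 to 178 FPKM in CON-pre, 99.3 to 125 in HFD-pre, 82.2 to 229 in CON-post and 76.3 to 162 in HFD-post, with Marco at 0 in some libraries. The 8 blood markers summed to 381 to 840 FPKM in CON-pre, 260 to 483 in HFD-pre, 336 to 483 in CON-post and 316 to 906 in HFD-post, with Slc4a1 at 0 in some libraries. Both sums overlapped between all groups. By diet 0 of the 9 macrophage markers tested were higher (median −0.28), with 0 called. Of the 6 blood markers tested, 6 were higher in HFD-post against CON-post (median 0.36) and 1 in HFD-pre against CON-pre (median −0.48). By diet averaged over the exercise states 3 of these 6 were higher (median 0.02), and 0 were called in these comparisons. Their part in the results was not tested.

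**Figure D4:**
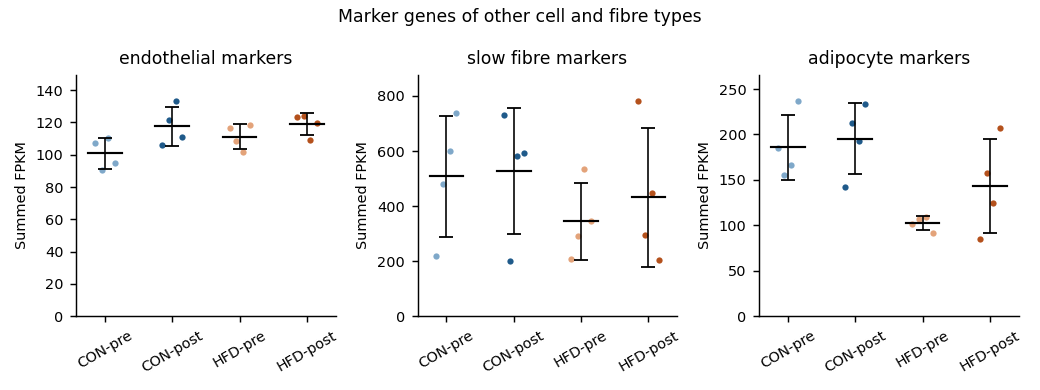
Summed FPKM (vertical axes, from 0) of 13 endothelial, 9 slow fibre and 12 adipocyte markers in each of the 16 libraries (points), with the group mean (bar) and SD (whiskers, n = 4). The adipocyte sums of the 4 HFD-pre libraries (92.0 to 109) lie below those of the 4 CON-pre libraries (156 to 236), mostly through the 1 marker Cfd (means 27.4 and 105 FPKM), and the slow fibre sums overlap between all groups.

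Over the 16 libraries Cd36 and Fabp3 were the closest pair among the 9 genes, with a Pearson r of 0.96 on the log2 scale, and of 0.86 for the deviations from the group means. For Vldlr and Gpihbp1 r was −0.57 (−0.35 for the deviations), and for Vldlr and Fabp3 it was −0.39 (0.13 for the deviations, the opposite sign). Among all other genes tested, those most like Fabp3 were Acaa2 (r = 0.979), Etfb (0.961) and Acadl (0.949), and those most like Cd36 were Slc25a34 (0.953), Acadl (0.948) and Acaa2 (0.937). Acaa2, Acadl and Etfb encode enzymes and an electron carrier of mitochondrial β-oxidation. Closest to Acsl1 were Hsd17b4 (0.896), Chrna2 (0.893) and Slc25a20 (0.885), the last of them the carnitine-acylcarnitine carrier. None of the nearest genes of the other 6 was among the nearest of Fabp3 or Acsl1. For Slc27a1 they were Gpr116 (0.946), Adamtsl4 (0.930) and Slc25a34 (0.914), and for Slc27a4 Mrc2 (0.884), Adcy9 (0.871) and Scn4b (0.863). For Lpl they were Actn2 (0.939), Pla2g12a (0.901) and Dgat2 (0.883), and for Angptl4 Fzd1 (0.866), Sema3g (0.852) and Cpt1a (0.846). For Vldlr they were Tmem110 (0.916), Akt2 (0.915) and Mcm3 (0.907), and for Gpihbp1 they included Coq5 (0.857) and Slc25a42 (0.826). Each r was picked as the highest among the genes tested, over libraries that share diet and exercise state.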

How the data were processed

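Quadriceps of 16 mice in 4 groups of 4 was sequenced as stranded mRNA libraries. According to the Methods, the authors trimmed adapters, checked the reads with FastQC, aligned them with TopHat and estimated expression with Cufflinks, for which versions and the annotation are not given in the sources used here. The deposited values are FPKM, scaled by the authors for transcript length and library size. Read numbers are not part of these values, so a log-scale model was fitted and the precision of a single value is unknown. The Methods name mm9, but the loci the authors give for these genes lie in GRCm38, and RefSeq GRCm38.p6 was used for positions and promoters.

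Of 24487 entries, 27 whose names had become dates were left out (0.0771% of FPKM). The FPKM of 260 symbols with several entries were summed, leaving 23970 symbols, and 0 columns of sample values were left out. The 11256 genes that averaged 0.5 FPKM or more were tested on the log2(FPKM + 0.5) scale with limma 3.58.1 (R 4.3.3), fitting the 4 groups together and letting the variance follow the mean, with Benjamini-Hochberg adjustment. For the averaged comparisons the 2 contrasts of one kind were averaged. Ratios were compared with exact permutation tests, exchanging labels within the other factor, where the smallest possible p is 0.000408. The code was tested on simulated data. Python 3.11.15, numpy 2.4.6, pandas 2.3.3 and matplotlib 3.10.9 served for tables and figures. A value of 0 in some library was found in 16 genes that averaged 5 FPKM or more, none of them among the 9.

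The alternatives were other pseudocounts and filters, 3 scalings, fitting only the groups compared, no trend, array weights, a replicate block, 3 marker scores as covariates, a threshold of 0.1 and leaving out each library. The 9 genes and all lists were chosen with earlier results of these data known. Named were the 9 genes in every comparison, the other genes of the pathway called in at least 1 comparison and the most abundant of each list, markers called, and the 3 genes most like each of the 9, of which 1 is not reported here. Myh2 was left out of the slow fibre sum after the data had been seen. p-values measure the spread between the mice of a group.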

Additional observations from a re-analysis of the deposited data

Results flagged for a closer look

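Single libraries stood apart from the other 3 of their group in 3 of the 36 sets of 4 values, by Dixon's test at the 95% level. Fabp3 was at 101 FPKM in CON-post replicate 3, against 71.4 to 75.2 FPKM in the others. Slc27a1 was at 17.5 FPKM in HFD-pre replicate 1, against 21.2 to 21.9 FPKM. Angptl4 was at 14.9 FPKM in HFD-post replicate 2, against 7.46 to 8.39 FPKM. Chance alone flags about 1 in 20 of the sets checked, so some of the 3 may be chance. Without CON-post replicate 3, 0 of the 9 genes were called by exercise. Without HFD-pre replicate 1, Slc27a1 lost its exercise call (0.28, adjusted p = 0.0859) and 0 of the 9 were called by exercise. Without HFD-post replicate 2 the averaged diet and exercise calls of Angptl4 were unchanged, and its difference in HFD-post against CON-post went from 0.58 to 0.36. The cause of the 3 values was not tested.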

How the results depend on the processing

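Of the 9 genes, HFD-pre against CON-pre gave 1 call, 3 with upper-quartile or median-of-ratios scaling, array weights, the oxidative fibre covariate or an adjusted p under 0.1, 2 with quantile normalization and 0 with the endothelial covariate, and from 0 to 2 with 1 library left out. CON-post against CON-pre gave 0 calls, 2 with array weights, 1 with the threshold at 0.1, and from 0 to 2 with 1 library left out. HFD-post against CON-post gave 0 calls and 1 with the oxidative fibre covariate (Fabp3, 1.24, adjusted p = 0.0426). HFD-post against HFD-pre and the interaction gave 0 calls throughout. Diet averaged over exercise states gave 4 calls and between 3 and 5 with 1 library left out. Exercise averaged over diets gave 4 calls, 0 without a filter (all 4 with an adjusted p between 0.0514 and 0.0677), 2 with each of the 3 scalings, 1 with the endothelial covariate, and from 0 to 5 with 1 library left out. It fell to 0 without CON-pre replicate 1, HFD-pre replicate 1 or 2 or CON-post replicate 3, and to 1 without HFD-pre replicate 3 or without CON-pre replicate 2. Slc27a1 also lost its exercise call without the mean-variance trend (adjusted p = 0.0517) and with the adipocyte covariate (adjusted p = 0.0688). Acsl1 was called by exercise with array weights (0.22, adjusted p = 0.0290). The causes were not tested.

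Gene by gene, the interaction was followed through the alternatives for Gpihbp1 and Slc27a4 only, so turned signs of the interaction are unknown for the other genes. Among the values followed, signs that turned were all of small values that were not called. They were Gpihbp1 by exercise with upper-quartile scaling (−0.0055), quantile normalization (−0.0071) and the endothelial covariate (−0.034), Slc27a4 in HFD-pre against CON-pre without CON-pre replicate 2 (−0.020, in a range from −0.020 to 0.144 with 1 library left out), and Lpl in HFD-post against CON-post without CON-post replicate 2 (−0.011) or HFD-post replicate 1 (−0.023, in a range up to 0.158).

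Replicate numbers are shared between groups, but same-numbered libraries did not deviate together (24 pairs, r from −0.220 to 0.213, 5 over 0.1, and 13 of 48 best matches with the own number). With a replicate block the counts of called genes stayed at 1, 0, 0, 0, 4, 4 and 0, and 2 more ratios passed by diet besides Fabp3 to Cd36 (0.669, adjusted p = 0.0156), Angptl4 to Lpl (0.476, adjusted p = 0.0156) and Slc27a1 to Slc27a4 (0.260, adjusted p = 0.0375). With 1 library left out, these ratios ranged from 0.337 to 0.62 and from 0.192 to 0.326. Without a count of reads, what depth limits is unknown.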
